A study of Gallus gallus with 10 samples.

Results

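Collagen chain genes were taken as the genes whose name in the deposited table has the form COL, a number, A and a number. The table of 24355 genes holds 26 such names, each once, and 16 of them reached 1 FPKM in at least 5 of the 10 libraries and are described here. FPKM are sequenced fragments scaled by the length of the transcript and the size of the library, so that levels of different genes can be set side by side. The 16 comprise 6 chains of fibrillar collagens, 2 of FACIT collagens (which sit on the surface of fibrils), 2 of basement membrane collagen, 3 of the beaded filament collagen, 2 of the network-forming type VIII and 1 multiplexin. RNA came from choroids, the vascular and pigmented layer between retina and sclera, of normal chicks (strain label Domesticus) at day 15 after hatching. Treated choroids were kept for 24 hours at 37 °C and 5% CO2 with 1.5 mM PAPA-NONOate, a nitric oxide donor (5 libraries). The other group, labelled minus PAPA-NONOate, served as control (5 libraries), although the labels carry the same incubation text for both groups. Both groups have replicates numbered 2, 3, 4, 5 and 8, and values below follow that order. All treated libraries carry the letter R and all controls the letter L, with no key, so that what the letters mark cannot be told apart from the treatment. Separate animals are not named for the replicates, and the p-values cover only how far these samples differ, which may be technical.

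Collagens are secreted proteins in which chains wind around each other into a rope-like helix. Fibrillar collagens, above all types I and III, form the load-bearing fibrils of stroma and vessel walls. FACIT collagens bind to these fibrils, type IV forms the sheet under endothelium and epithelium, and type VI forms fine filaments between cells and fibrils. In the choroid they make up the stroma between the vessels and parts of Bruch's membrane, the layer shared with the retinal pigment epithelium.

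The libraries differ beyond the groups. Summed FPKM of the highest library was 1.53 times that of the lowest, PAPA-NONOate replicate 2, and the absolute depth is unknown. Over all 11357 genes tested the median log2 fold change was -0.18. Of these genes 64.9% lay below the lowest control in PAPA-NONOate replicate 2, and 16.3% in PAPA-NONOate replicate 5. Markers of choroidal cells were present: the summed level of 7 endothelial markers was 346 to 539 FPKM with PAPA-NONOate, against 425 to 576 FPKM in controls, and that of 9 melanocyte markers was 40.0 to 215 FPKM with PAPA-NONOate, against 53.1 to 498 FPKM in controls. Of 8 scleral cartilage markers 6 stayed under 1 FPKM in every library, as did 7 of 10 markers of the retinal pigment epithelium and retina. LRAT, a visual cycle enzyme of the pigment epithelium, averaged 0.760 ± 0.228 FPKM with PAPA-NONOate and 1.98 ± 0.656 FPKM in controls (SD, n = 5 each) and fell (-0.96 as log2 fold change, adjusted p = 0.0224), a call lost on omission of PAPA-NONOate replicates 4 or 8 or of control replicates 2 or 8 (adjusted p up to 0.0599). LRAT reached 1 FPKM in 1 treated library and 5 controls, which alone brought it into the test. PRPH2, a photoreceptor protein, ran from 0.0511 to 1.26 FPKM with PAPA-NONOate, against 0 to 0.916 FPKM in controls.

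Among the collagens, type III and the shorter chains of type VI fell after PAPA-NONOate, as did FACIT type XIV and the multiplexin type XVIII, FACIT type XII rose and type IV passed no test. In limma, with Benjamini-Hochberg adjustment over all genes tested and a threshold of 0.05, 5 of the 16 genes fell (COL3A1, COL6A1, COL6A2, COL14A1 and COL18A1), 1 rose (COL12A1) and 10 did not pass. Of all genes tested, 7.41% were called lower and 1.93% higher (9.34% in either direction), and 13 of the 16 collagen log2 fold changes were below 0, against 74.1% of all genes. The median of the 16 was -0.57, against -0.18 over all genes, and 6 of them had a log2 fold change of -1 or less, as did 3.86% of all genes. After median-ratio scaling of the libraries, which brought the median of all genes to -0.0019, 3 collagen genes were called lower (COL3A1, COL6A1 and COL14A1) and 1 higher (COL12A1), while 6.44% of all genes were called lower and 7.03% higher. COL6A2 and COL18A1 lost their calls there, at adjusted p-values of 0.0607 and 0.0527. The adjusted p-values of the 6 called genes lay between 0.0252 and 0.0482, and leaving out single libraries moved the counts. The number called lower was 8 with PAPA-NONOate replicate 5 left out, 4 with control replicate 4 left out and 3 with PAPA-NONOate replicate 3 left out. In these fits 1580, 517 and 529 of all 11357 genes were called lower, against 842 as deposited. Of the collagen genes 1 was called lower on omission of PAPA-NONOate replicates 2 or 4 or of control replicates 2, 3 or 5. All genes called lower in these fits numbered 429 to 748. On omission of PAPA-NONOate replicate 8 no collagen gene was called lower in limma (565 of all genes), with 9 at an unadjusted p under 0.05. On omission of control replicate 8 none was called lower either (501 of all genes), with 8 at such a p. At an unadjusted p under 0.05 the number of collagen genes lower was 8 to 10 whichever library was left out. The share of all genes at such a p was not counted, so these numbers have no background to be set against. Without the filter on low values none of the 16 was called in limma (8 lower and 1 higher at an unadjusted p under 0.05). In that fit 575 of 19269 genes were called lower and 204 higher. The rise of COL12A1 was called again without PAPA-NONOate replicate 4 and lost when any other library was left out.

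**Figure D1:**
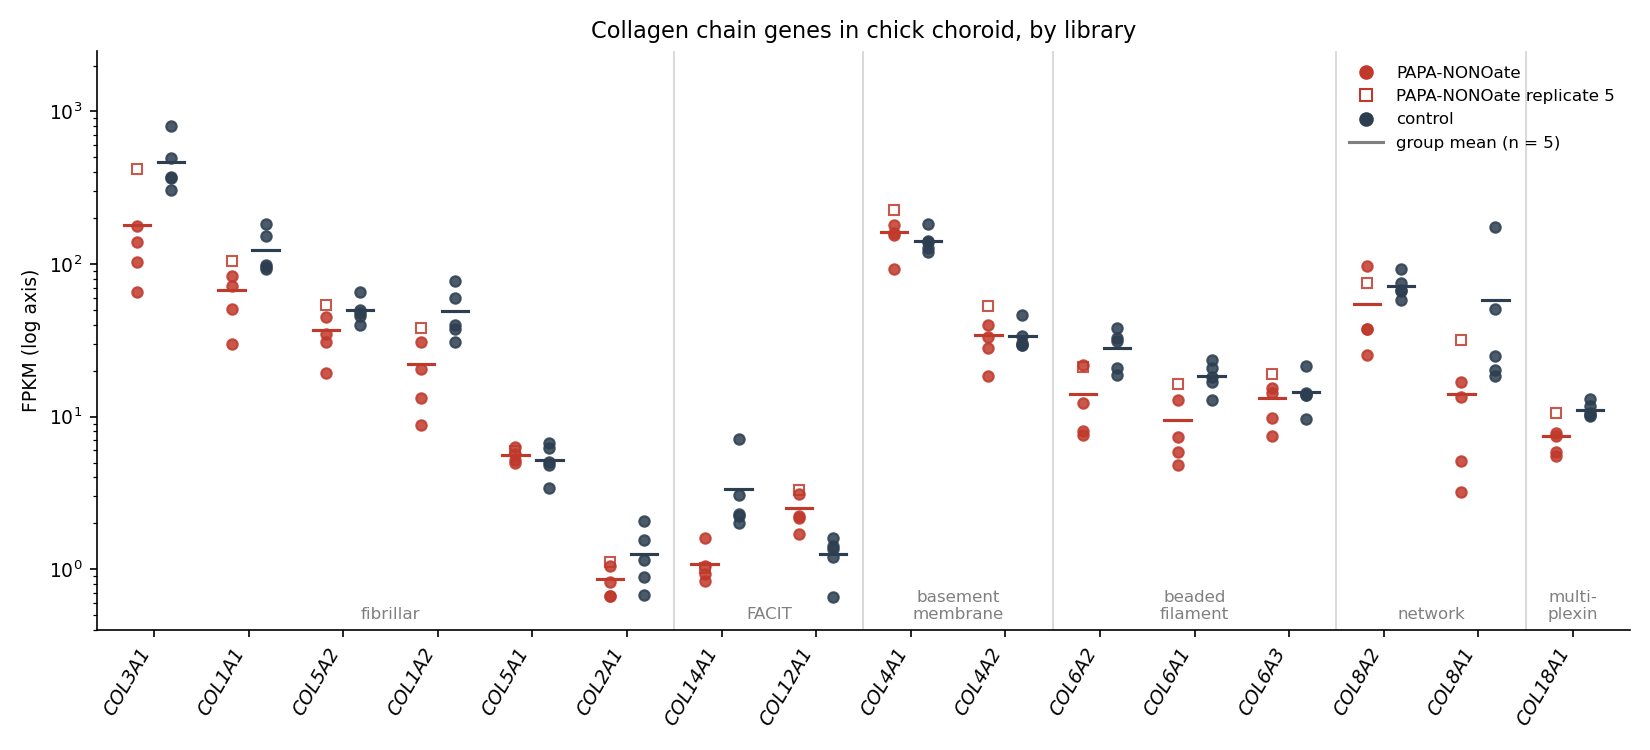
FPKM (log axis) of the 16 collagen chain genes in each library, PAPA-NONOate (red) left of control (dark), with bars for the group means (n = 5 each) and an open square for PAPA-NONOate replicate 5. COL14A1 and COL12A1 are the genes whose groups do not overlap, and the open square stands among the controls for COL3A1, COL1A1 and COL1A2.

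COL3A1 (ENSGALG00000035584), the chain of type III collagen, had the highest mean of the 16 over the 10 libraries and fell after PAPA-NONOate. Its level was 65.9, 177, 139, 422 and 103 FPKM with PAPA-NONOate, against 806, 364, 306, 492 and 375 FPKM in controls. All treated libraries except replicate 5 lay below the lowest control. In 4 of the 5 treated libraries and in no control COL3A1 was below COL4A1. It averaged 181 ± 141 FPKM with PAPA-NONOate and 469 ± 200.1 FPKM in controls (SD, n = 5 each), a difference past the threshold (log2 fold change -1.57, SE 0.41, adjusted p = 0.0325, 95% interval -2.46 to -0.68). The call was lost on omission of PAPA-NONOate replicates 2, 3, 4 or 8 or of control replicates 2, 3, 5 or 8 (adjusted p up to 0.0899). Without PAPA-NONOate replicate 5 the log2 fold change was -1.95 (adjusted p = 0.00263).

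Type I collagen, the main fibril protein of connective tissue, is built from the products of COL1A1 and COL1A2, and neither gene passed the threshold. COL1A1 (ENSGALG00000041555) was at 30.0, 83.1, 71.3, 104 and 50.9 FPKM with PAPA-NONOate, against 184, 98.1, 95, 92.8 and 152 FPKM in controls. COL1A2 (ENSGALG00000009641) was at 8.86, 30.7, 20.6, 37.8 and 13.2 FPKM with PAPA-NONOate, against 77.1, 39.6, 30.7, 37.3 and 59.8 FPKM in controls. For both genes PAPA-NONOate replicate 2 was lowest and replicate 5 stood inside the control range, so the groups overlap. For COL1A2 PAPA-NONOate replicate 3, at 30.67 FPKM, also stood just inside it, with the lowest control at 30.655 FPKM. The log2 fold changes were -0.93 for COL1A1 (95% interval -1.59 to -0.27, adjusted p = 0.0739) and -1.22 for COL1A2 (95% interval -2.0 to -0.44, adjusted p = 0.053). Without PAPA-NONOate replicate 5 both were called, at -1.11 (adjusted p = 0.0261) and -1.45 (adjusted p = 0.0156). COL1A2 was also called after quantile normalization (adjusted p = 0.044).

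Type V collagen, which starts fibrils and limits their width, gave a different picture for its chains. COL5A2 (ENSGALG00000031112) ran from 19.3 to 54.2 FPKM with PAPA-NONOate, against 39.6 to 65.2 FPKM in controls, and did not pass (-0.49, adjusted p = 0.194). COL5A1 (ENSGALG00000002546) ran from 4.98 to 6.31 FPKM with PAPA-NONOate, against 3.42 to 6.68 FPKM in controls, and its log2 fold change was 0.12 (95% interval -0.24 to 0.48, adjusted p = 0.664). All 5 treated libraries lay inside the control range for COL5A1, and the bounds of the interval leave room for a fall as well as a rise. COL2A1 (ENSGALG00000030712), the fibrillar chain of cartilage and vitreous, was the weakest of the 16. It reached 1 FPKM in 2 treated libraries and 3 controls, just enough to be kept, and ran from 0.668 to 1.12 FPKM with PAPA-NONOate, against 0.679 to 2.06 FPKM in controls (log2 fold change -0.33, adjusted p = 0.401). Next outside the limit was COL13A1, a transmembrane collagen, which reached 1 FPKM in 2 controls. It was at 0, 0.317, 0.246, 0.371 and 0.0672 FPKM with PAPA-NONOate, against 2.43, 0.525, 0.507, 0.686 and 1.77 FPKM in controls. Every treated library lay below every control, and the difference was not tested.

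The FACIT genes went in opposite directions, and of the 16 they were the genes whose groups did not overlap. Among all genes tested, 7.48% lay entirely below the controls and 1.84% entirely above. COL14A1 (ENSGALG00000037675), whose product binds fibril surfaces, was at 0.832, 1.60, 1.05, 1.02 and 0.926 FPKM with PAPA-NONOate, against 7.15, 2.31, 2.22, 2.0 and 3.07 FPKM in controls. Control replicate 2 stood high above the other controls, and all treated libraries lay below every control. The fall (log2 fold change -1.16, SE 0.29, adjusted p = 0.0252) was no longer called after quantile normalization (adjusted p = 0.0508), nor on omission of PAPA-NONOate replicate 8 or of control replicate 8 (adjusted p up to 0.0549). COL14A1 reached 1 FPKM in 3 treated libraries and all 5 controls, so that its controls alone would have kept it.

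COL12A1 (ENSGALG00000015908), the FACIT chain of tendon, ligament and corneal stroma, was at 2.23, 2.17, 1.71, 3.29 and 3.13 FPKM with PAPA-NONOate, against 1.61, 1.21, 0.653, 1.43 and 1.37 FPKM in controls. Every treated library lay above every control, and the means were 2.51 ± 0.676 FPKM with PAPA-NONOate and 1.25 ± 0.365 FPKM in controls (SD, n = 5 each). The rise (log2 fold change 0.78, SE 0.22, adjusted p = 0.0437) came to 0.92 after median-ratio scaling (adjusted p = 0.0141). Both FACIT genes are weakly expressed, at the 10.2 and 13.1 percentile of mean FPKM among the genes tested for COL12A1 and COL14A1, and the pseudocount of 0.5 FPKM understates their changes. With a pseudocount of 0.1 COL12A1 stood at 0.96 and was no longer called (adjusted p = 0.0519). On omission of any library other than PAPA-NONOate replicate 4 the call was lost too (adjusted p up to 0.101).

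COL4A1 and COL4A2 encode the chains of the type IV collagen found in all basement membranes, including those of the choriocapillaris. COL4A1 (ENSGALG00000036798) was next to COL3A1 in mean level, at 93.0, 181, 161, 225 and 156 FPKM with PAPA-NONOate, against 182, 141, 128, 119.9 and 140.5 FPKM in controls. COL4A2 (ENSGALG00000016843) was at 18.5, 39.9, 33.1, 53.2 and 28.1 FPKM with PAPA-NONOate, against 46.5, 33.8, 29.4, 29.3 and 30.3 FPKM in controls. In both genes PAPA-NONOate replicate 2 was the lowest and PAPA-NONOate replicate 5 the highest of all 10 libraries. The log2 fold change of COL4A1 was 0.16 (95% interval -0.29 to 0.60, adjusted p = 0.652) and that of COL4A2 was -0.033 (95% interval -0.55 to 0.48, adjusted p = 0.942). After median-ratio scaling COL4A2 was on the other side of 0, at 0.15. The interval for COL4A1 excludes a fall of the size of the COL3A1 estimate, and that of COL4A2 does so as well.

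Type VI collagen is assembled from the products of COL6A1, COL6A2 and COL6A3, of which COL6A1 and COL6A2 encode the short chains and COL6A3 the long one. COL6A1 (ENSGALG00000005974) was at 4.83, 12.9, 7.38, 16.3 and 5.87 FPKM with PAPA-NONOate, against 23.6, 20.7, 12.9, 16.8 and 18.3 FPKM in controls. COL6A2 (ENSGALG00000039216) was at 7.57, 21.9, 12.3, 21.0 and 8.08 FPKM with PAPA-NONOate, against 31.2, 37.9, 18.7, 20.8 and 32.8 FPKM in controls. Of the treated libraries, replicates 2, 4 and 8 lay below every control for both genes, and replicates 3 and 5 lay within the control range. COL6A1 fell (log2 fold change -1.04, SE 0.29, adjusted p = 0.0419), and so did COL6A2 (log2 fold change -1.06, SE 0.31, adjusted p = 0.0482). Both calls were lost on omission of the same libraries, PAPA-NONOate replicates 2, 4 or 8 or control replicates 2, 3, 5 or 8 (adjusted p up to 0.109 for COL6A1 and 0.114 for COL6A2). The call of COL6A2 was also lost with a pseudocount of 0.1, median-ratio scaling, quantile normalization, no mean-variance trend, limma's robust prior and library weights (adjusted p up to 0.0749). COL6A3 (ENSGALG00000003923) was at 9.77, 15.5, 7.47, 19.0 and 14.3 FPKM with PAPA-NONOate, against 21.4, 13.8, 9.68, 13.8 and 14.2 FPKM in controls. Its groups overlap, and the log2 fold change was -0.16 (95% interval -0.70 to 0.37, adjusted p = 0.697). After median-ratio scaling it was 0.017.

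COL18A1, the multiplexin of vascular and epithelial basement membranes and the source of the fragment endostatin, fell. The gene (ENSGALG00000038311) was at 5.54, 7.50, 5.89, 10.5 and 7.77 FPKM with PAPA-NONOate, against 13.0, 11.7, 10.1, 10.6 and 10.2 FPKM in controls. All treated libraries except replicate 5 lay below every control (log2 fold change -0.58, SE 0.16, adjusted p = 0.0457). The call was lost after median-ratio scaling and quantile normalization, and on omission of any library other than PAPA-NONOate replicate 5 (adjusted p up to 0.114). It was also lost with a filter at 5 FPKM (adjusted p = 0.0515), without a filter (0.0804), with the replicate number as a block (0.0785) and without limma's mean-variance trend (0.0514). The network-forming type VIII genes, known from vessel walls and Descemet's membrane, did not pass, and COL8A1 had the widest standard error of the 16. COL8A1 (ENSGALG00000015253) was at 3.19, 17.0, 13.4, 31.9 and 5.15 FPKM with PAPA-NONOate, against 176, 25.1, 20.2, 51.0 and 18.5 FPKM in controls. Control replicate 2 held far more than the other controls, and PAPA-NONOate replicates 2 and 8 held least. The log2 fold change of COL8A1 was -1.83 (SE 0.66, adjusted p = 0.0968), and -1.28 without control replicate 2 (adjusted p = 0.204). Without PAPA-NONOate replicate 5 it was -2.21 and called (adjusted p = 0.0343). COL8A2 (ENSGALG00000002298) was at 37.5, 37.3, 25.4, 74.6 and 97.0 FPKM with PAPA-NONOate, against 75.7, 67.0, 67.1, 58.1 and 92.4 FPKM in controls. PAPA-NONOate replicates 5 and 8 lay well above the other treated libraries, and the log2 fold change of -0.56 did not pass (adjusted p = 0.251).

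**Figure D2:**
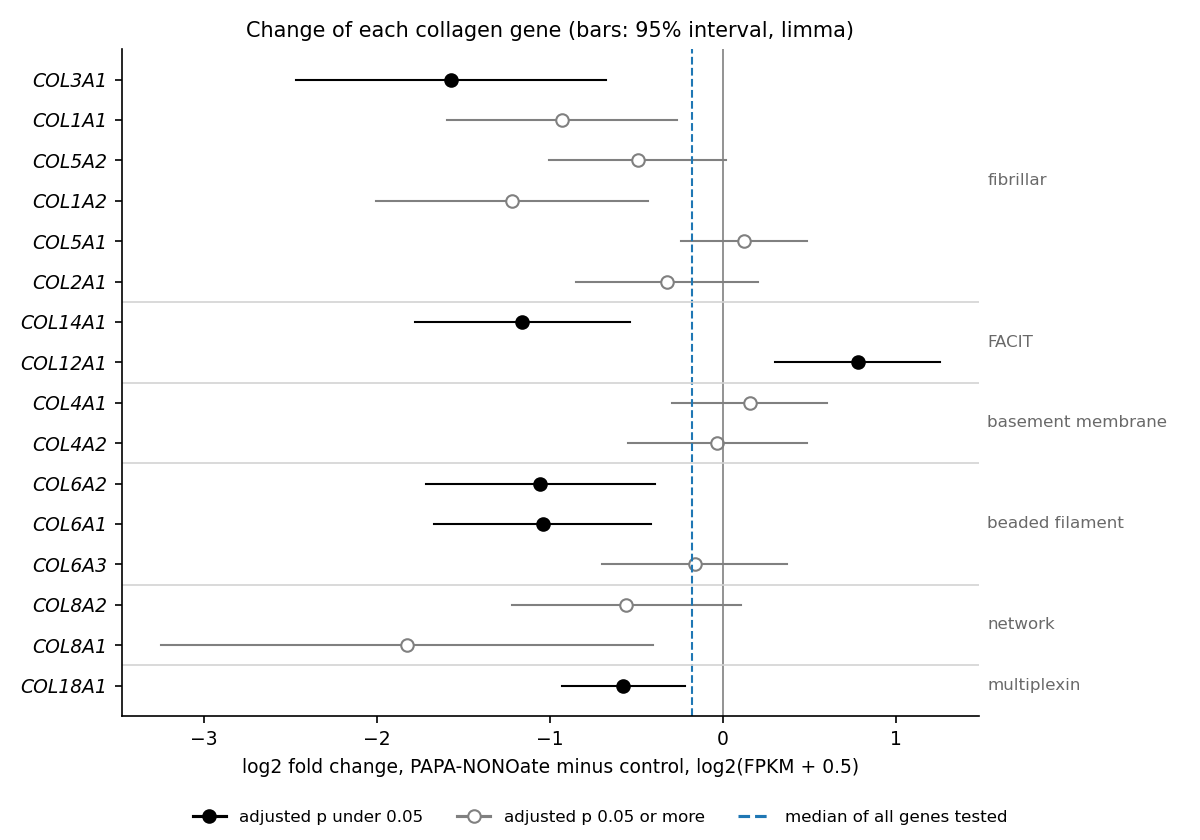
Log2 fold change of each collagen gene, PAPA-NONOate minus control, on the log2(FPKM + 0.5) scale with its 95% interval from limma. Filled points mark adjusted p under 0.05 and the dashed line the median of all genes tested at -0.18. COL12A1 alone is filled on the right, at 0.78, and COL8A1 has the widest interval.

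Ratios between chains within a library do not depend on how libraries are scaled. They were not tested, because the genes were chosen with results of these data known. The ratio of COL4A1 to COL1A1, basement membrane against fibril, was 3.10, 2.18, 2.25, 2.17 and 3.06 with PAPA-NONOate, against 0.988, 1.44, 1.35, 1.29 and 0.924 in controls. Every treated library, replicate 5 included, lay above every control. The means were 2.55 ± 0.484 with PAPA-NONOate and 1.20 ± 0.228 in controls (SD, n = 5 each). Of all genes tested, 17.1% had a ratio to COL1A1 that was higher in every treated library than in every control. The ratio of COL6A3 to COL6A1 was 2.02, 1.20, 1.01, 1.16 and 2.44 with PAPA-NONOate, against 0.905, 0.666, 0.749, 0.821 and 0.777 in controls, again without overlap. The same held for 9.92% of all genes set against COL6A1.

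Ratios of the other pairs overlapped between the groups. COL6A1 to COL6A2 stood at 0.592 to 0.776 with PAPA-NONOate, against 0.546 to 0.806 in controls. COL1A1 to COL1A2 stood at 2.71 to 3.86 with PAPA-NONOate, against 2.39 to 3.10 in controls and COL4A1 to COL4A2 at 4.24 to 5.56 with PAPA-NONOate, against 3.92 to 4.64 in controls. COL5A1 to COL5A2 stood at 0.110 to 0.270 with PAPA-NONOate, against 0.0721 to 0.133 in controls. The level of a ratio also depends on the transcript lengths used for FPKM, so that it gives no count of chains. COL3A1 to COL1A1 stood at 1.96 to 4.06 with PAPA-NONOate, against 2.46 to 5.30 in controls, where replicate 5, at 4.06, was the treated library inside the control range.

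**Figure D3:**
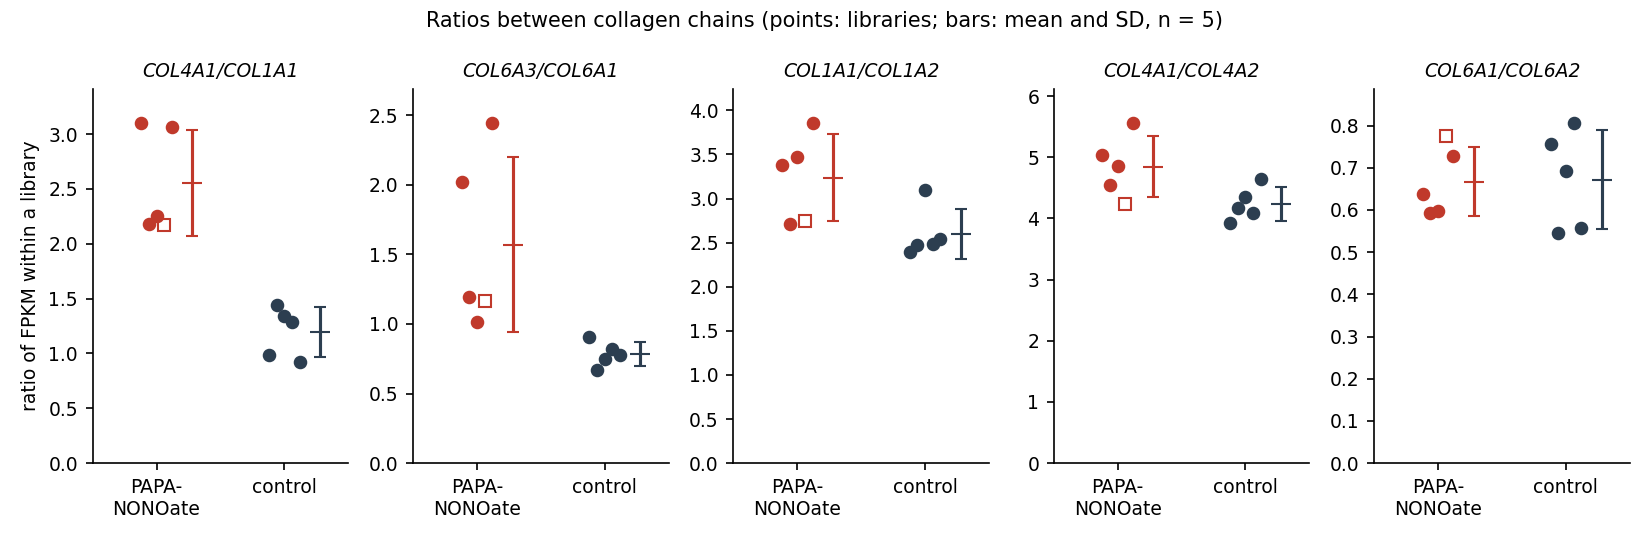
Ratios of FPKM between collagen chains within each library, PAPA-NONOate left of control, with the mean and SD (n = 5 each) and an open square for PAPA-NONOate replicate 5. The groups are apart for COL4A1 to COL1A1 and COL6A3 to COL6A1 and overlap for the other 3 ratios.

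Shares of the summed FPKM of the 16 genes set the groups apart for fibrillar and basement membrane collagens. Fibrillar collagens took 41.5, 50.4, 50.0, 57.8 and 39.0% with PAPA-NONOate, against 66.3, 61.0, 61.5, 67.6 and 64.1% in controls. Basement membrane collagens took 35.6, 32.6, 36.1, 25.8 and 34.4% with PAPA-NONOate, against 13.3, 19.3, 20.3, 14.9 and 17.0% in controls. For both classes every treated library lay on the same side of every control. COL3A1 alone took 19.2 to 39.1% with PAPA-NONOate, against 37.2 to 49.3% in controls, and COL4A1 alone 20.8 to 30.0% with PAPA-NONOate, against 10.6 to 16.5% in controls. The fibrillar share averaged 47.7% with PAPA-NONOate and 64.1% in controls, and that of COL3A1 26.3% and 42.6%. The difference in the fibrillar share thus lay largely in COL3A1. COL1A1 averaged 10.8% and 11.6% and COL1A2 3.43% and 4.49%, while COL5A1, COL5A2 and COL2A1 averaged higher shares with PAPA-NONOate. The shares of beaded filament and network collagens overlapped between the groups, at 5.07 to 7.40% with PAPA-NONOate, against 4.43 to 7.96% in controls, and 7.23 to 19.1% with PAPA-NONOate, against 10.1 to 14.7% in controls. The sum itself was 313, 679.7, 536, 1081 and 535 FPKM with PAPA-NONOate, against 1718, 909, 776, 998 and 1007 FPKM in controls, with PAPA-NONOate replicate 5 above 4 of the controls. Shares sum to a fixed total, so that a lower share of COL3A1 goes with higher shares of others. A gene with an unchanged level, set against this lower sum, gains as well. How many of all genes would set the groups apart against the same sum was not measured, so how particular the separation is to type IV is not known. Among the 16 genes the share of COL12A1 was apart as well, at 0.305 to 0.714% with PAPA-NONOate, against 0.0842 to 0.143% in controls.

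**Figure D4:**
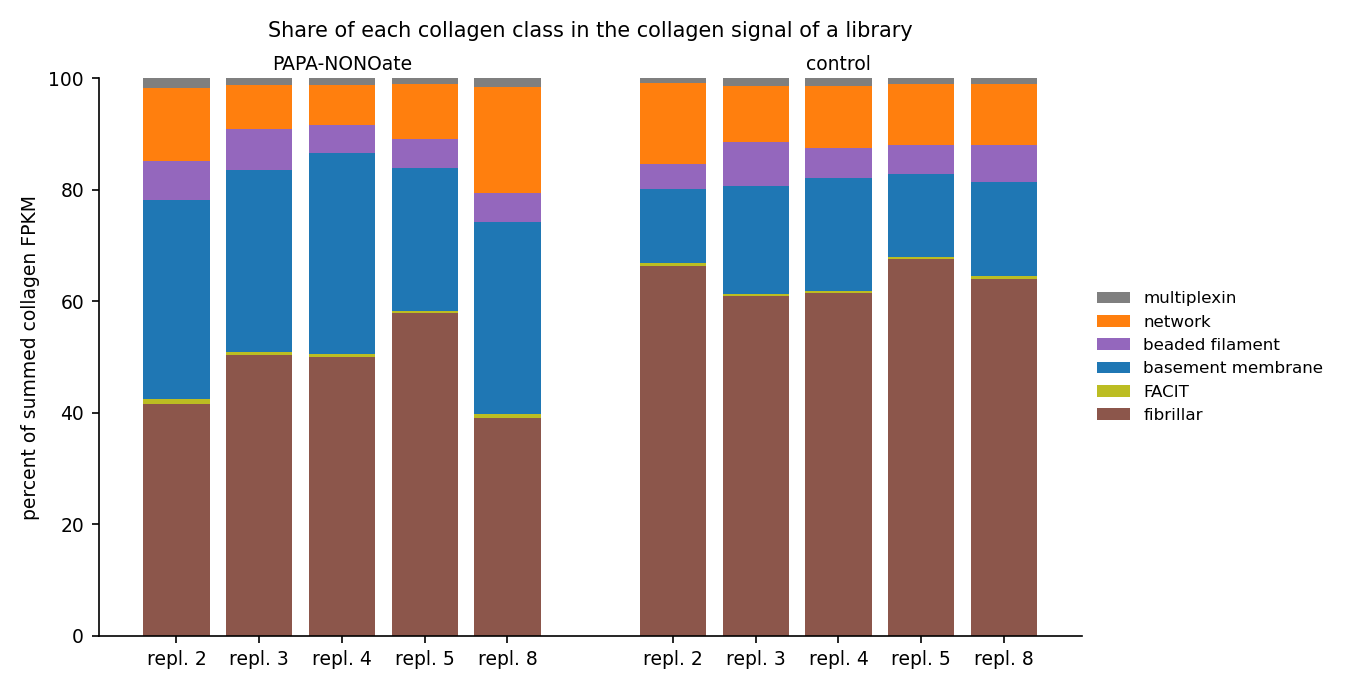
Share of each collagen class in the summed FPKM of the 16 genes, as stacked bars for each library, PAPA-NONOate on the left and control on the right. The basement membrane part is 25.8 to 36.1% with PAPA-NONOate and 13.3 to 20.3% in controls.

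The same libraries were low or high for most collagen genes. PAPA-NONOate replicate 2 held the lowest treated value for 12 of the 16 genes and replicate 5 the highest for 12. In replicate 2, 13 of the 16 lay below the control range, where 64.9% of all genes tested did. In replicate 3 these were 6 (36.1% of all genes), in replicate 4 12 (34% of all genes), in replicate 5 1 (16.3%) and in replicate 8 10 (33.3%). Among controls, replicate 2 was highest for 12 genes. Fibroblasts are the main source of fibrillar collagen. The summed level of 12 fibroblast markers was 541, 928, 795, 1153 and 845 FPKM with PAPA-NONOate, against 1523, 1155, 1198, 1109.5 and 1469.9 FPKM in controls. It was lowest in PAPA-NONOate replicate 2, and replicate 5 lay inside the control range. The groups differed at p = 0.0159 (exact permutation test, two-sided, n = 5 each), and at 0.0714 after Benjamini-Hochberg adjustment over 9 marker lists. The lists were chosen with earlier results of these data known, so the p-values of marker sums are descriptive and do not serve as tests. Of 11 tested fibroblast markers 3 fell and 1 rose, where 7.41% of all genes tested were called lower and 1.93% higher. Those that fell were DCN and LUM, proteoglycans that bind collagen fibrils (-1.14 and -1.84), and the mesenchymal transcription factor gene PRRX1 (-0.82), as log2 fold changes with adjusted p-values of 0.0109, 0.00563 and 0.0305. The call of PRRX1 was lost on omission of PAPA-NONOate replicate 4 or of control replicates 2, 3, 4 or 8 (adjusted p up to 0.0728). The marker sum averaged 852 FPKM with PAPA-NONOate and 1291 FPKM in controls. Within it DCN averaged 236 and 499 FPKM and PRRX1 206 and 357 FPKM, so the difference in the sum lay largely in these genes. The gene that rose was TWIST1, another mesenchymal factor (0.53, adjusted p = 0.0419), a call lost on omission of PAPA-NONOate replicates 3, 4, 5 or 8 or of control replicates 2, 3, 4, 5 or 8 (adjusted p up to 0.0878). Of the 11 log2 fold changes 8 were below 0, against 74.1% of all genes. Those of TWIST1, TWIST2 and THY1 (0.25, adjusted p = 0.358) were above 0. Fewer fibroblasts, less RNA per fibroblast and changes of single genes cannot be told apart in bulk tissue. The part of each in the collagen changes was not tested.

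Markers of other cell types of the choroid were measured beside them, and the p-values of their sums are descriptive for the same reason. Of all genes tested 7.41% were called lower and 1.93% higher, and after median-ratio scaling 6.44% and 7.03%. Of 8 tested smooth muscle and pericyte markers 2 fell and 1 rose, with a summed level of 89.8 to 225 FPKM with PAPA-NONOate, against 173 to 271 FPKM in controls (p = 0.0397, exact permutation test, two-sided, n = 5 each, and 0.107 adjusted over the 9 lists). Those that fell were the pericyte genes RGS5 (-1.67) and KCNJ8 (-1.62), and the contractile gene CNN1 rose (1.46), at adjusted p-values of 0.0419, 0.00637 and 0.00739. CNN1 reached 1 FPKM in all 5 treated libraries and no control, so it was tested only because of its level with PAPA-NONOate. The call of RGS5 was lost on omission of PAPA-NONOate replicates 3 or 8 or of control replicates 2, 3, 4, 5 or 8 (adjusted p up to 0.0972). ACTA2, smooth muscle actin, did not pass (0.52, adjusted p = 0.264). It was called higher with the replicate number as a block after median-ratio scaling (adjusted p = 0.0423). The summed level averaged 149 FPKM with PAPA-NONOate and 216 FPKM in controls, and RGS5 alone averaged 40.4 and 104 FPKM. The difference in the sum thus lay largely in RGS5. The median log2 fold change of the tested genes of this list was -0.099, against -0.18 over all genes. Of 7 endothelial markers 1 fell, the receptor gene TEK (-0.89, adjusted p = 0.0404), a call lost on omission of PAPA-NONOate replicates 2, 3 or 8 or of control replicates 2, 4, 5 or 8 (adjusted p up to 0.0889). TEK reached 1 FPKM in 3 treated libraries and 5 controls, which alone brought it into the test. PECAM1 (0.042) and CDH5 (-0.32), adhesion genes of endothelium, did not pass (adjusted p = 0.9 and 0.203). Macrophage markers summed to 200.2 to 521 FPKM with PAPA-NONOate, against 533 to 905 FPKM in controls, without overlap (p = 0.00794, exact permutation test, two-sided, n = 5 each, the smallest value possible, and 0.0714 adjusted over the 9 lists). Of 10 macrophage markers 4 fell: the complement genes C1QA (-1.08) and C1QB (-1.48), the scavenger receptor gene MARCO (-1.19) and the myeloid transcription factor gene SPI1 (-0.76), at adjusted p-values of 0.0397, 0.0126, 0.0221 and 0.00597. The call of C1QA was lost on omission of PAPA-NONOate replicates 2, 3 or 8 or of control replicates 2, 3, 5 or 8 (adjusted p up to 0.0882), and that of MARCO on omission of PAPA-NONOate replicate 3 or of control replicate 8 (adjusted p up to 0.0574). CD74, the invariant chain of antigen presentation, did not pass (-0.74, adjusted p = 0.0677), but was called on omission of PAPA-NONOate replicate 5 (adjusted p = 0.0318). After median-ratio scaling 1 more marker of each of 3 lists was called higher, the fibroblast gene TWIST2 (0.69, adjusted p = 0.0386, against 0.51 and 0.077 as deposited), the endothelial gene VWF (0.54, adjusted p = 0.00854, against 0.36 and 0.143 as deposited) and the macrophage gene MRC1 (0.51, adjusted p = 0.0416, against 0.33 and 0.219 as deposited). The part of these markers in the collagen results was not tested.

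Several steps of collagen production were measured with gene lists, which were drawn up with results of these data known. Of all genes tested 7.41% were called lower and 1.93% higher, and after median-ratio scaling 6.44% and 7.03%. Of 16 measured genes of folding and modification in the endoplasmic reticulum 3 fell, none rose and 13 did not pass, with a median log2 fold change of -0.37. P4HA3, a catalytic subunit of prolyl 4-hydroxylase, was at 0.212, 0.347, 0.763, 0.660 and 0.851 FPKM with PAPA-NONOate, against 2.56, 2.79, 2.39, 1.61 and 4.63 FPKM in controls. Every treated library lay below every control (log2 fold change -1.61, SE 0.27, adjusted p = 0.00339). No treated library and all 5 controls reached 1 FPKM, so P4HA3 was tested only because of its level in controls. FKBP10, a chaperone of procollagen, fell (-0.81, adjusted p = 0.0388), and so did P3H3, of the prolyl 3-hydroxylase family (-0.80, adjusted p = 0.0175). P3H4, its partner, did not pass (-1.06, adjusted p = 0.0508), although every treated library lay below every control. It ran from 4.97 to 18.8 FPKM with PAPA-NONOate, against 19.0 to 34.2 FPKM in controls. The call of P3H3 was lost after quantile normalization (adjusted p = 0.0625) and on omission of control replicate 3 (adjusted p up to 0.0509). The call of FKBP10 was lost on omission of PAPA-NONOate replicates 3, 4 or 8 or of control replicates 2, 3, 4, 5 or 8 (adjusted p up to 0.0916). P3H4 was called on omission of PAPA-NONOate replicates 2 or 5 or of control replicate 3 (adjusted p down to 0.0248). It was also called with a pseudocount of 1, quantile normalization, library weights, and the replicate block with and without median-ratio scaling. With median-ratio scaling alone it was not called (adjusted p = 0.0546). After median-ratio scaling 1 gene of the list was called higher, PLOD2, a lysyl hydroxylase (0.51, adjusted p = 0.0269, against 0.32 and 0.243 as deposited).

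Of 14 measured genes of export, propeptide cleavage and crosslinking 4 fell, none rose and 10 did not pass, with a median log2 fold change of -0.49. Of all genes tested 7.41% were called lower and 1.93% higher, with a median of -0.18. LOXL2, a lysyl oxidase that crosslinks collagen, was at 1.22, 2.70, 1.73, 4.38 and 1.75 FPKM with PAPA-NONOate, against 7.13, 4.59, 4.91, 8.38 and 4.50 FPKM in controls. All treated libraries lay below the controls (log2 fold change -1.22, SE 0.27, adjusted p = 0.0154). ADAMTS14, which removes the N-terminal propeptide of procollagen, was at 0.189, 0.675, 0.260, 0.760 and 0.638 FPKM with PAPA-NONOate, against 2.02, 1.60, 1.68, 1.96 and 1.43 FPKM in controls. It too was lower in every treated library than in any control (log2 fold change -1.19, SE 0.23, adjusted p = 0.00713), and it was tested only because of its level in controls, since no treated library reached 1 FPKM. PCOLCE2 (-0.66, adjusted p = 0.0153) and PCOLCE (-0.93, adjusted p = 0.049), enhancers of C-propeptide cleavage, also fell. The call of PCOLCE was lost on omission of PAPA-NONOate replicates 3, 4 or 8 or of control replicates 2, 3, 4 or 8 (adjusted p up to 0.122). ADAMTS3, the procollagen protease related to ADAMTS14, did not pass (-0.62, adjusted p = 0.0559), but was called on omission of PAPA-NONOate replicates 5 or 8 (adjusted p down to 0.0348) and after median-ratio scaling (adjusted p = 0.0431).

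Among 8 measured proteases that cleave collagen, 1 rose, 3 fell and 4 did not pass. Of all genes tested 1.93% were called higher and 7.41% lower. MMP1 (ENSGALG00000019061), interstitial collagenase, which cuts fibrillar collagen helices, was at 454, 363, 274, 405 and 604 FPKM with PAPA-NONOate, against 92.7, 118, 130.5, 245 and 119 FPKM in controls. Every treated library lay above every control, although control replicate 5 was high within its group, and the means were 420.1 ± 122 FPKM with PAPA-NONOate and 141 ± 59.8 FPKM in controls (SD, n = 5 each). The rise (log2 fold change 1.61, SE 0.26, adjusted p = 0.0028) kept its call under all 21 alternative settings run. The genes that fell were MMP9, a gelatinase (-1.21, adjusted p = 0.0266), CTSK, the lysosomal collagenase cathepsin K (-0.99, adjusted p = 0.0423), and MMP15, a membrane-bound metalloproteinase (-0.58, adjusted p = 0.0471). With single libraries left out the log2 fold changes ran from -1.50 to -1.02 for MMP9, -1.22 to -0.80 for CTSK and -0.68 to -0.44 for MMP15. The call of MMP9 was lost on omission of PAPA-NONOate replicates 4 or 8 or of control replicates 2, 3, 5 or 8 (adjusted p up to 0.0727), that of CTSK on omission of PAPA-NONOate replicates 2, 3, 4 or 8 or of control replicates 2, 3, 5 or 8 (adjusted p up to 0.103) and that of MMP15 on omission of PAPA-NONOate replicates 2, 3, 4 or 8 or of control replicates 2, 3, 4 or 8 (adjusted p up to 0.118). After median-ratio scaling CTSK was no longer called (adjusted p = 0.0583). CTSB, cathepsin B, did not pass (-0.35, adjusted p = 0.208).

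None of 6 measured collagen receptor genes passed in limma, with 1 gene at an unadjusted p under 0.05. After median-ratio scaling 1 was called higher, ITGB1, the chain shared by the collagen-binding integrins (0.44, adjusted p = 0.0168, against 0.26 and 0.287 as deposited). Under that scaling 7.03% of all genes were called higher. ITGA11, another collagen-binding integrin chain, was the gene at an unadjusted p under 0.05 (log2 fold change -0.57, 95% interval -1.12 to -0.016, adjusted p = 0.166). Of 21 measured regulators of collagen transcription 1 fell, none rose and 20 did not pass (7.41% of all genes tested were called lower and 1.93% higher). The median log2 fold change of the regulators was -0.20, close to that of all genes. The gene that fell was CREB3L1, a transcription factor of the endoplasmic reticulum membrane that drives type I collagen genes in mouse bone. It was at 5.91, 6.62, 7.27, 11.7 and 7.34 FPKM with PAPA-NONOate, against 20.4, 12.4, 17.6, 15.1 and 16.3 FPKM in controls. All treated libraries lay below the controls, replicate 5 nearest to them, and the fall (log2 fold change -1.05, SE 0.18, adjusted p = 0.00425) kept its call under all 21 settings. SP3, a zinc finger factor that binds collagen promoters, did not pass (-0.36, adjusted p = 0.0762), but was called on omission of PAPA-NONOate replicate 5 (adjusted p = 0.0403) and with library weights (adjusted p = 0.0199).

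**Figure D5:**
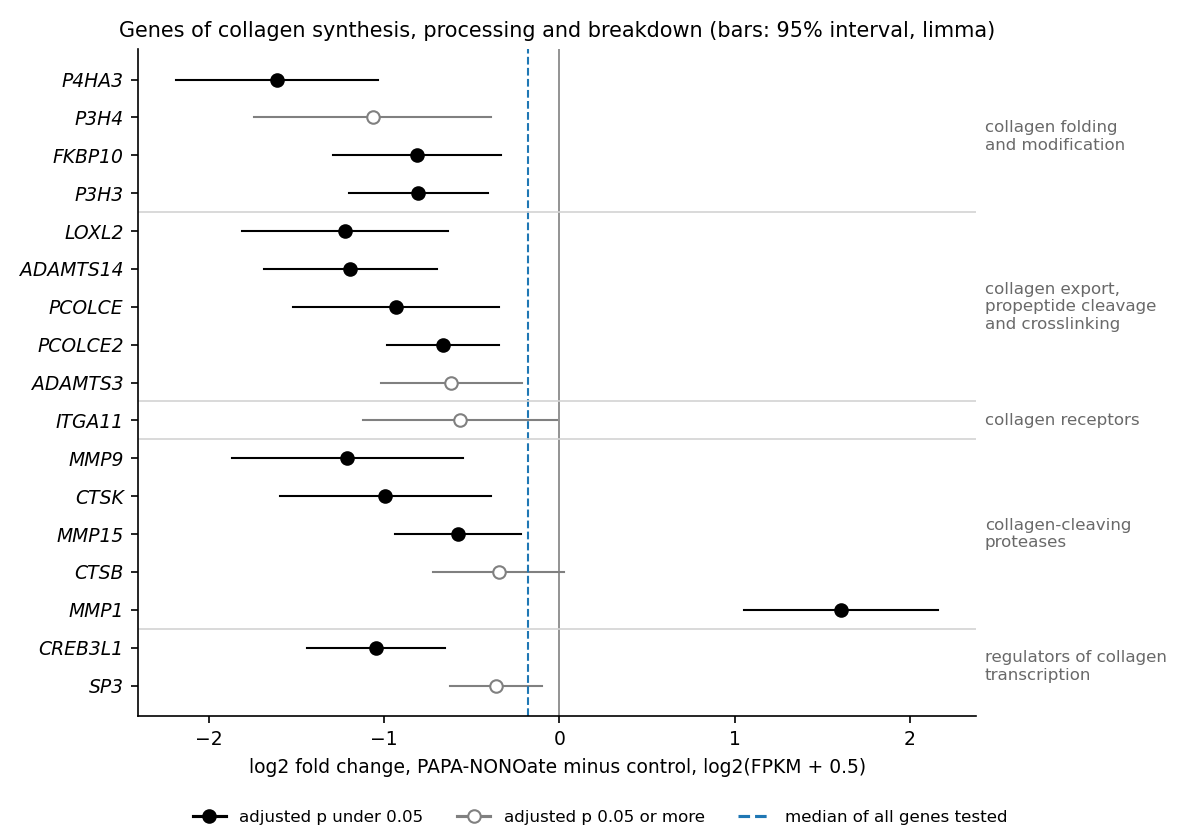
Log2 fold changes, PAPA-NONOate minus control, with 95% intervals from limma, filled where the adjusted p is under 0.05. Drawn are the genes of collagen synthesis, processing, binding and breakdown named by the rule given under processing. PLOD2 (0.32), ITGB1 (0.26) and SOX9 (0.89) are not drawn. MMP1 is the only gene drawn on the right, at 1.61, and P4HA3 lies farthest to the left, at -1.61. P4HA3 and ADAMTS14 were tested only because of their levels in controls.

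The other 9 collagen names stayed under 1 FPKM in every library. COL9A1, COL9A2 and COL9A3, the FACIT chains of cartilage type II fibrils, peaked at 0.416, 0.882 and 0.226 FPKM. In the same libraries ACAN, the cartilage proteoglycan, peaked at 0.151 FPKM and MATN1, cartilage matrix protein, at 1.52 FPKM, while SOX9, also a cartilage marker, was at 4.82, 14.6, 23.1, 28.4 and 6.53 FPKM with PAPA-NONOate, against 5.49, 6.02, 8.98, 6.74 and 6.05 FPKM in controls. PAPA-NONOate replicates 3, 4 and 5 lay above all controls for SOX9, which did not pass (0.89, adjusted p = 0.166). SOX9 was called without PAPA-NONOate replicate 2 (1.22, adjusted p = 0.044) and with library weights (adjusted p = 0.0427). It was also called with the replicate number as a block after median-ratio scaling (adjusted p = 0.0243). The transmembrane COL17A1 ran from 0.130 to 0.307 FPKM with PAPA-NONOate, against 0.179 to 0.510 FPKM in controls. COL20A1, COL22A1, COL25A1, COL26A1 and COL28A1 peaked between 0.0299 FPKM for COL22A1 and 0.295 FPKM for COL28A1. None of these 9 genes was tested.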

How the data were processed

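RNA was sequenced in 5 libraries of choroid with PAPA-NONOate and 5 of control choroid, and titles set the groups. The deposited values are FPKM that the authors made from poly(A)-selected, strand-specific libraries, per the labels' protocols. Cufflinks and SAMtools were used with genome build GRCg6a, per the submitters' processing notes; versions, aligner and annotation release were not given in the sources used here. The deposited FPKM give no depth, so no counting intervals are given, and a listed 0 can be a failed estimate. In 10 genes 14 values of 999999999 were read as missing and these genes were not tested. limma 3.58.1 (R 4.3.3, mean-variance trend, 8 residual and 4.83 prior degrees of freedom) was run on log2(FPKM + 0.5) of all 11357 genes with at least 1 FPKM in at least 5 libraries, and fold changes are on that scale. Adjusted p-values in the text are limma's, by Benjamini-Hochberg over these genes. The code was tested on simulated data.

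Libraries of the same group correlated at 0.930 to 0.978, so none was counted as a duplicate. Every collagen gene past the expression limit is named. From each list of collagen synthesis, receptors, proteases and regulators, the up to 4 called genes and the uncalled gene with the smallest adjusted p are named, and from each marker list the 2 called genes with the smallest adjusted p and the 2 with the highest mean. TWIST1, TWIST2, THY1, C1QA, ACAN, PLOD2, ITGB1, VWF, MRC1, HBAD and HBE1 stand outside this rule and were chosen after their values were seen. The members and lists were chosen with earlier results of these data known. RefSeq names (GRCg7b) matched all 26 collagen names. Alternatives were other pseudocounts (0.1 and 1), filters, scalings, limma settings, the replicate number as a block and each library left out. Figures were drawn with matplotlib 3.10.9.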

Additional observations from a re-analysis of the deposited data

Results flagged for a closer look

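Within each group of 5 libraries, the highest or lowest value was compared with its neighbour by Dixon's ratio at the 95% critical value of 0.71. Of 32 groups of collagen values 4 held such a sample, and of 114 groups over all genes screened 11 did. Screened were the 16 collagen genes, the other tested genes named by the rule above, and TWIST1 and C1QA. The ratio was taken on FPKM and not on the log2 scale of the limma fits. Chance gives about 1 in 20 for normally distributed values only. The counts therefore cannot show an excess of outlying samples, since skewed values alone can raise them. Among the collagens these were COL8A1 at 176 FPKM in control replicate 2 (others 18.5 to 51.0 FPKM), COL4A2 at 46.5 FPKM in control replicate 2 (others 29.3 to 33.8 FPKM), COL14A1 at 1.60 FPKM in PAPA-NONOate replicate 3 (others 0.832 to 1.05 FPKM), and COL14A1 at 7.15 FPKM in control replicate 2 (others 2.0 to 3.07 FPKM). Control replicate 2 is the high sample in 3 of these 4. It also had the highest melanocyte marker sum, at 498 FPKM against 53.1 to 189 FPKM in the other controls, and the highest fibroblast marker sum; the part of either in these values was not tested.

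Among the other genes screened the samples were P3H4 at 4.97 FPKM in PAPA-NONOate replicate 2 (others 15.0 to 18.8 FPKM), MMP1 at 245 FPKM in control replicate 5 (others 92.7 to 130.5 FPKM), CTSK at 542 FPKM in PAPA-NONOate replicate 5 (others 216 to 289 FPKM), CREB3L1 at 11.7 FPKM in PAPA-NONOate replicate 5 (others 5.91 to 7.34 FPKM), PECAM1 at 114 FPKM in control replicate 4 (others 81.0 to 84.6 FPKM), C1QB at 128 FPKM in control replicate 8 (others 50.6 to 62.1 FPKM) and HBBA at 2078 FPKM in control replicate 5 (others 367 to 851 FPKM).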

How the results depend on the processing

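As deposited, 5 collagen genes were called lower, 1 higher and 1061 genes in all (842 lower and 219 higher). With libraries left out in turn these counts ran from 0 to 8, 0 to 1 and 604 to 1813. Without the expression filter no collagen gene was called in limma (0 lower and 0 higher, with 8 and 1 at an unadjusted p under 0.05). Of the 19269 genes in that fit 575 were called lower and 204 higher. A filter at 5 FPKM gave 3 lower, 0 higher (13 of the 16 tested, COL12A1 and COL14A1 not among them) and 605 genes in all. These were 449 lower and 156 higher among 8094 genes tested. Median-ratio scaling, quantile normalization and no trend gave 3 lower each, and a pseudocount of 0.1 gave 0 higher (1 at an unadjusted p under 0.05). Of all 11357 genes 850 were called lower with no trend and 207 higher with a pseudocount of 0.1. After median-ratio scaling 731 genes were lower and 798 higher, after quantile normalization 680 and 733. Library weights gave 1807 calls in all. The replicate block gave 4 lower, 1 higher and 893 in all, and with median-ratio scaling 5, 1 and 1855. Same-numbered libraries did not all deviate together (correlations -0.023 to 0.303 over genes), but 3 of 5 treated libraries correlated best with the control of their own number. The melanocyte marker sum was highest in replicate 2 and next highest in replicate 4 in both groups. It stood there at 215 and 96.7 FPKM with PAPA-NONOate, against 498 and 189 FPKM in controls. These values do not decide whether the numbers mark pairs, and the labels do not say so. The main fit therefore left the numbers out, and it may miss changes that stand out only within numbers. None of the 6 called collagen genes kept its call under every setting. Without the expression filter C1QA, CTSK, FKBP10, MARCO, MMP9, MMP15, PCOLCE, PRRX1, RGS5, TEK and TWIST1 lost their calls too. Quantile normalization lost those of CTSK, LRAT, P3H3 and TEK, and a pseudocount of 0.1 those of PCOLCE and TEK. Without the trend MMP15, PCOLCE and TWIST1 lost theirs, with the robust prior PCOLCE and RGS5, and with the 5 FPKM filter MMP15 and PCOLCE. COL2A1, COL4A1, COL5A2 and COL8A2 were not called and kept their direction under every setting run (COL2A1 could not be run with the 5 FPKM filter). With the block PMEL, FOXD3 and CD74 were called too (adjusted p = 0.015, 0.0394 and 0.0353), as was P3H4. C1QA, FKBP10, MMP15, PCOLCE, TEK and TWIST1 lost their calls with it, and C1QA and PCOLCE also with the block after median-ratio scaling. Values near 0 changed sign: COL4A2 to 0.15 with median-ratio scaling (with or without the block), 0.085 with quantile normalization, 0.12 with library weights, and 0.17, 0.019 and 0.085 on omission of PAPA-NONOate replicate 2, PAPA-NONOate replicate 8 and control replicate 2. COL6A3 changed to 0.017 with median-ratio scaling (with or without the block), 0.023 with quantile normalization and 0.014 without PAPA-NONOate replicate 4, and COL5A1 to -0.0072 without control replicate 3. NGFR changed to -0.0084 with library weights and to -0.11 and -0.038 without PAPA-NONOate replicate 5 or 8, and PECAM1 to -0.10 without PAPA-NONOate replicate 4. Over the libraries left out in turn these genes ran from -0.21 to 0.17 (COL4A2), -0.31 to 0.014 (COL6A3), -0.0072 to 0.21 (COL5A1), -0.11 to 0.22 (NGFR) and -0.10 to 0.16 (PECAM1). The cause of these changes was not tested. Depth is unknown, so genes near 1 FPKM carry an unknown counting error.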

Other observations

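In the RefSeq gene order of a later assembly, 3 pairs of the 16 genes are direct neighbours among protein-coding genes: COL4A1 with COL4A2, COL6A1 with COL6A2, and COL5A2 with COL3A1. The log2 fold changes within the pairs were 0.16 and -0.033, -1.04 and -1.06, and -0.49 and -1.57.

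The ratio of COL8A1 to COL8A2, both of type VIII collagen, was 0.0850, 0.454, 0.526, 0.428 and 0.0531 with PAPA-NONOate, against 2.33, 0.374, 0.301, 0.878 and 0.200 in controls. It was lowest in PAPA-NONOate replicates 2 and 8 and highest in control replicate 2, and the groups overlap. Schwann cell markers, with 0 of 9 called in limma (3 at an unadjusted p under 0.05), summed to 192 to 389 FPKM with PAPA-NONOate, against 217 to 314 FPKM in controls, with the neurotrophin receptor gene NGFR at 0.066 and the neural crest factor gene FOXD3 at -0.57 as log2 fold changes (adjusted p = 0.876 and 0.103). Red blood cell markers, 0 of 5 called (2 at an unadjusted p under 0.05), summed to 1145 to 2154 FPKM with PAPA-NONOate, against 488 to 2777 FPKM in controls, with the globin genes HBA1 at 0.73 and HBBA at 0.53 (adjusted p = 0.246 and 0.355). After median-ratio scaling 2 of the 5 were called higher, HBAD (1.26, adjusted p = 0.0412, against 1.08 and 0.0635 as deposited) and HBE1 (1.28, adjusted p = 0.0451, against 1.11 and 0.0651 as deposited). Under that scaling 7.03% of all genes were called higher, and as deposited 9.34% were called in either direction. Among melanocyte markers, 0 of 7 called (0 at an unadjusted p under 0.05), PMEL, a melanosome protein, was at -1.16 and the transcription factor gene SOX10 at -0.23 (adjusted p = 0.484 and 0.357). With the replicate number as a block PMEL was called lower, with and without median-ratio scaling (limma adjusted p down to 0.015).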
